A study of Rattus norvegicus with 12 samples.

Results

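The comparison set 4 prefrontal cortex libraries of rats labelled as a hypoxic-ischemic brain damage (HIBD) model against 4 libraries of rats labelled normal. Both groups were SD rats at postnatal day 28, and the labels name no allele, drug or other agent for either of them. The labels do not say how or when the injury was made, which side of the brain was taken, the sex of the rats, or whether tissue was pooled. Each library carries its own number in its title, used here as its replicate number, and since nothing says that libraries came from separate litters, a p-value here speaks only of library-to-library spread. A further 4 acupuncture libraries entered the same fit, where they took part in the filter on low values, the scaling and the estimate of that spread. Genes were described when they had an Ensembl identifier and averaged at least 1 CPM over the 8 libraries, where CPM is the estimated count scaled to the TMM-adjusted library total. This rule kept 14115 genes, called the expressed Ensembl genes here, of 32883 Ensembl genes and 43206 genes and assembled loci in all. They held 97.5% to 99.1% of the estimated counts of each library. Near the limit, 196 of them averaged between 1 and 1.1 CPM, and 210 Ensembl genes between 0.9 and 1 CPM were left out.

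Hypoxia-ischemia deprives brain tissue of oxygen and blood-borne fuel at the same time. In newborn rodents it is commonly modelled by closing a carotid artery and then lowering the oxygen in the air, which leaves lasting loss of neurons, glial scarring and poor myelination in the affected territory. The prefrontal cortex serves working memory and behavioural control. The deposited files give gene identifiers without names, and 0 of the 32883 Ensembl identifiers matched the reference table. Single genes are therefore given by identifier and without a function, and markers of neurons, glia or other cell types that could check the tissue label were not analysed here. In tissue of mixed cells, fewer cells of a type and less RNA per cell cannot be told apart.

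The total estimated count lay between 934069670 and 1074381884 in normal libraries and between 890562476 and 1090316733 in HIBD model libraries, and its worth in reads is unknown. Across the expressed Ensembl genes, which are not independent replicates, Pearson's r of log2(CPM + 0.1) was 0.958 to 0.968 between normal libraries and 0.933 to 0.968 between HIBD model libraries. Pairs from different groups had r from 0.917 to 0.970, and the highest of these joined normal replicate 10 and HIBD model replicate 2. The first principal component held 34.4% of the variance. It separated HIBD model replicates 8 and 16, at 46.6 and 65.3, from the other 6 libraries, at -44.2 to -3.16. In several measures below, normal replicate 10 lay with or near the HIBD model libraries.

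Few single genes passed an adjusted p of 0.05 as reported, and their number ran from 0 to 1547 between settings. Of the 14109 expressed Ensembl genes that passed the filter on low values, 13 passed an adjusted p of 0.05 (edgeR quasi-likelihood test), 2 higher and 11 lower in the HIBD model. That is 0.0921%, against 0.0968% of all 27885 genes tested, so the share over both directions is close to the background. For all genes tested, 16 higher calls made up 0.0574% and 11 lower calls 0.0394%. The expressed Ensembl genes thus held 2 of the 16 higher calls and all 11 lower ones, so the split by direction was not close to the background. The other 6 expressed Ensembl genes did not pass the filter. Without normal replicate 10, the count was 890 of 14111, with 370 higher and 520 lower, beside 3032 of all 28592 genes tested. Without HIBD model replicate 2 it was 73 of 14110, beside 126 of all 28548. It was 0 without normal replicate 8, normal replicate 11 or HIBD model replicate 8, and 0 in a fit of the 8 libraries alone, where an unadjusted p under 0.05 was reached by 768 higher and 1798 lower genes. In the 3 fits without 1 library that called 0, that unadjusted p was reached by 712 and 1123, 764 and 1472, and 806 and 1627 genes, in the order just given. Of the other single libraries, leaving out normal replicate 13 gave 2, HIBD model replicate 16 gave 2 and HIBD model replicate 18 gave 1. DESeq2 called 1547 of 14091 expressed Ensembl genes, beside 4072 of all 34255 genes tested.

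Fold changes were small for most of these genes. The quartiles of the log2 fold change were -0.23 and 0.09, the median standard error was 0.15, and 86.7% of the genes tested changed by less than 0.5 in either direction. An unadjusted p under 0.05 was reached by 894 genes with higher and 2116 with lower values in the HIBD model, 6.34% and 15.0% of those tested. Over all genes tested the shares were 13.6% and 8.83%. The 4 HIBD model libraries lay wholly above the 4 normal libraries for 431 genes and wholly below them for 1180, 3.05% and 8.36%, against 6.13% and 5.39% of all genes tested. Lower values made up 70.3% of the genes at an unadjusted p under 0.05, but this split differed between settings. It was 62.7% with RLE scaling (1013 higher, 1700 lower) and 44.2% when the expressed Ensembl genes were scaled and tested alone (1410 higher, 1115 lower), 42.0% with a trend on transcript length removed and 47.6% with Ensembl transcripts alone. It was 54.6% with all values divided by 70 and 85.2% with limma-trend on log2(FPKM + 1). The median log2 fold change moved with it, from -0.08 as reported to -0.00 with the expressed Ensembl genes alone and -0.15 on log2(FPKM + 1). Lower genes were thus the minority in 3 of these settings: expressed Ensembl genes alone, the length trend removed and Ensembl transcripts alone.

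**Figure D1:**
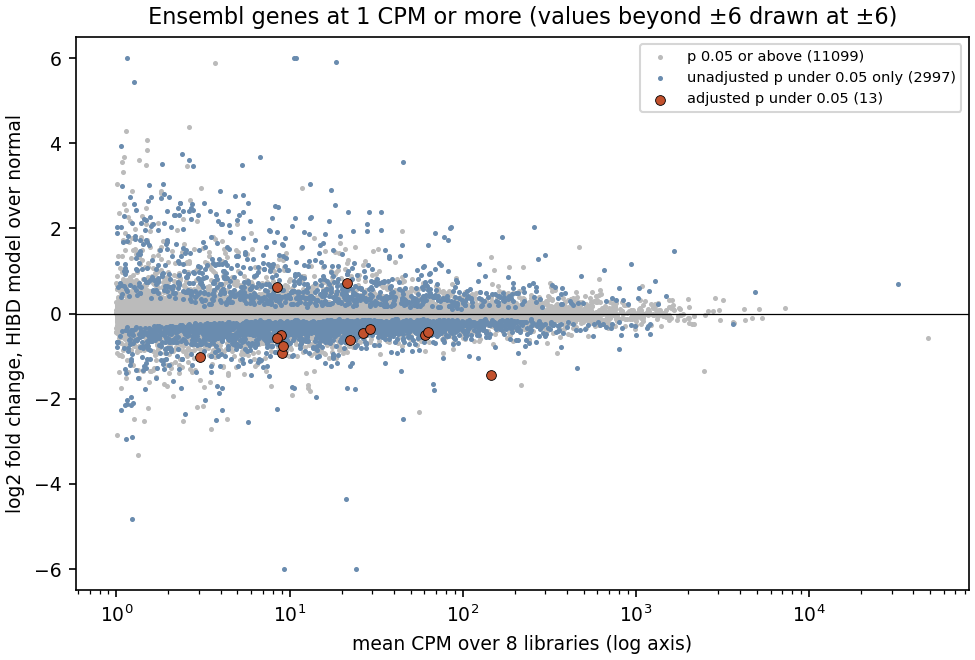
Log2 fold change of HIBD model over normal (vertical axis) against mean CPM over 8 libraries (horizontal log axis) for the 14109 expressed Ensembl genes tested, with 5 genes beyond 6 in either direction drawn at the edge. The 13 genes at an adjusted p under 0.05 are large points, 2 above and 11 below 0, and none beyond 1.5 in either direction.

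The gene of lowest p was ENSRNOG00000005927, which rose. Its level was 16.6, 15.3, 14.4 and 18.2 CPM in normal replicates 8, 10, 11 and 13, and 26.0, 26.0, 27.8 and 26.5 CPM in HIBD model replicates 2, 8, 16 and 18. The lowest HIBD model library stood well above the highest normal one, and the HIBD model libraries were close to each other. The log2 fold change was 0.72 (SE 0.08, edgeR adjusted p = 0.0199), a ratio of 1.65. Of its 7 transcript rows, 6 were transcripts named by the assembler, which held 98.4% of its FPKM. Of the 7 rows, 1 assembled row separated the groups, with 3.18 ± 1.27 CPM in the normal group and 12.3 ± 3.41 CPM in the HIBD model (SD, n = 4). The row that held the largest share of the gene, 43.5%, went from 7.44 ± 3.07 to 11.2 ± 2.23 CPM, and its groups overlapped.

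ENSRNOG00000004926 was the other gene that rose. It had a single Ensembl transcript row, at 6.55, 6.37, 7.35 and 6.30 CPM in normal replicates 8, 10, 11 and 13. The HIBD model replicates 2, 8, 16 and 18 had 10.9, 10.9, 9.86 and 9.21 CPM. All 4 HIBD model libraries lay above all normal ones, and the fitted log2 ratio was 0.62 (standard error 0.08, adjusted p = 0.0398 in edgeR). Its transcript was long, 6.10 times the median relative length of the expressed Ensembl genes. Per length, its level was low, at 0.596 ± 0.035 FPKM in normal and 0.860 ± 0.108 FPKM in HIBD model libraries (SD, n = 4).

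ENSRNOG00000000989 fell. Normal replicates 8, 10, 11 and 13 had 12.7, 11.1, 13.4 and 10.3 CPM, and HIBD model replicates 2, 8, 16 and 18 had 6.19, 6.03, 6.38 and 6.25 CPM. The 4 HIBD model values were nearly equal, with an SD of 0.145 CPM against 1.42 CPM between normal libraries (n = 4 each). The log2 fold change was -0.93 (SE 0.12, edgeR adjusted p = 0.0372), and FPKM went from 28.2 ± 2.24 to 14.1 ± 1.22 (SD, n = 4). All 5 of its transcript rows were Ensembl transcripts. The main one, 58.1% of the gene, was at 10.6, 9.49 and 7.41 CPM in normal replicates 8, 11 and 13 but at 0.612 CPM in normal replicate 10, where another row took 4.36 CPM. The sum over the gene was steady where its single rows were not.

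ENSRNOG00000054291 also fell. It stood at 29.5, 26.7, 25.2 and 26.9 CPM in normal replicates 8, 10, 11 and 13, and at 18.7, 17.9, 16.5 and 16.8 CPM in HIBD model replicates 2, 8, 16 and 18. Its groups did not overlap, and its log2 fold change was -0.63 (SE 0.08, edgeR adjusted p = 0.0372). A pair of assembled transcripts held nearly all of it. The larger one was at 16.0 to 24.8 CPM in normal libraries, at 12.5 and 11.8 CPM in HIBD model replicates 16 and 18, and listed at 0 in HIBD model replicates 2 and 8. In those 2 libraries the whole gene was assigned to the other assembled transcript, at 18.7 and 17.9 CPM. The fall of the gene was thus similar in all 4 HIBD model libraries, while its division between transcripts was not.

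**Figure D2:**
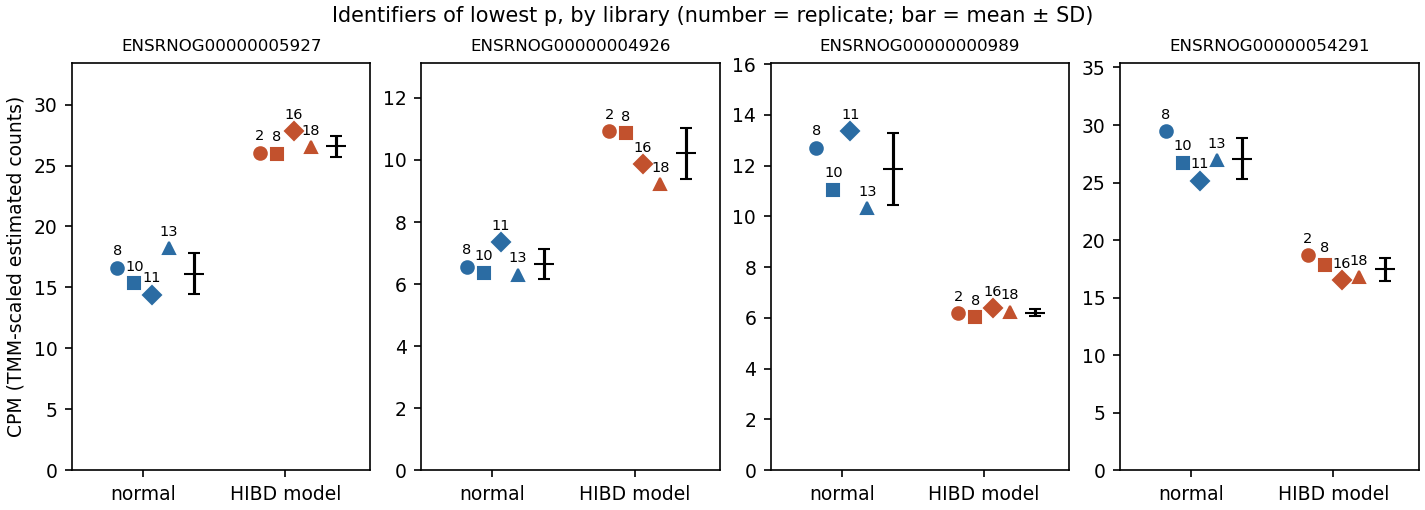
CPM (vertical axes, starting at 0) of the 4 identifiers of lowest p in each library of the normal and HIBD model groups, with the replicate number beside each point and mean ± SD as a bar. ENSRNOG00000005927 and ENSRNOG00000004926 are higher and ENSRNOG00000000989 and ENSRNOG00000054291 lower in all 4 HIBD model libraries.

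The calls of these 4 genes were fragile, although none changed direction in any alternative that gave a value. ENSRNOG00000005927 passed in 11 of 18 alternatives, ENSRNOG00000004926 in 8 of 19, ENSRNOG00000000989 in 8 of 19 and ENSRNOG00000054291 in 7 of 18. In the fit of the normal and HIBD model libraries alone, none of them passed (edgeR adjusted p of 0.0952, 0.125, 0.0944 and 0.104 in that order). Leaving out 1 library at a time also ended calls. Removing any of normal 8, normal 11, HIBD model 8, HIBD model 16 or HIBD model 18 ended the calls of ENSRNOG00000005927 (adjusted p up to 0.0584 in edgeR) and ENSRNOG00000000989 (up to 0.104). The call of ENSRNOG00000004926 ended on removing any of normal 8, normal 11, normal 13, HIBD model 8 or HIBD model 16 (adjusted p up to 0.104 in edgeR). That of ENSRNOG00000054291 held only when the library removed was normal 10 or HIBD model 2, with an adjusted p of up to 0.102 in edgeR otherwise.

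The other 9 genes that fell had log2 fold changes from -1.43 to -0.37 and edgeR adjusted p-values from 0.0398 to 0.0485. Of these, 6 lay between -0.6 and 0. Their normal means ran from 4.07 to 213 CPM. The steepest fall was in the gene of highest normal mean CPM among them, a level that is not divided by length. Per length this gene was not the highest, with a normal mean of 8.39 FPKM against 587 FPKM for another of the 9. It had 214, 219, 193 and 227 CPM in normal replicates 8, 10, 11 and 13. Its HIBD model libraries lay between 55.6 CPM in replicate 18 and 113 CPM in replicate 16, all below normal and more spread, with an SD of 27.5 CPM against 14.8 CPM (n = 4 each). Its log2 fold change of -1.43 ranged from -3.77 with Ensembl transcript rows alone to -0.98 on log2(FPKM + 1), and 58.3% of its FPKM came from assembled transcripts. Each of the 9 passed in 4 to 8 of the alternatives and kept its direction in all of those that gave a value. All 13 called genes had groups that did not overlap, which follows from their choice by p. With the expressed Ensembl genes tested alone, 3 of the 13 passed, with RLE scaling 7, and with DESeq2 all 13.

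Large fold changes were fitted mainly for genes of low CPM, and few of them passed the test. A log2 fold change of at least 1 was fitted for 377 genes with higher and 170 with lower values in the HIBD model, of 14109 tested. Of all 27885 genes tested, 5523 (19.8%) and 1228 (4.4%) reached it, so both shares were smaller among expressed Ensembl genes. Of the latter, 96.1% changed by less than 1 in either direction. Of the 377, 240 (63.7%) had an unadjusted p under 0.05, the groups of 94 (24.9%) did not overlap, and 0 passed an adjusted p of 0.05 (edgeR). These shares are above the 6.34% and 3.05% of all expressed Ensembl genes, as the choice by fold change favours, and they are given as a description. In 123 of them, 32.6%, a single HIBD model library held over 50% of the sum of its group. That group's highest library was replicate 16 for 202 of the 377 genes, replicate 18 for 81, replicate 8 for 72 and replicate 2 for 22. Of the 377, 322 had at least 1 assembled transcript, 85.4% against 42.0% of all expressed Ensembl genes tested. Over 90% of the FPKM came from such transcripts in 205 of the 377, and in 1591 of all 14109 tested. Among the 170, 92 (54.1%) had an unadjusted p under 0.05, 36 (21.2%) had groups that did not overlap and 2 passed an adjusted p of 0.05 (edgeR). A single normal library held over 50% of the sum of its group in 34 of them. Of the 170, 92 (54.1%) had at least 1 assembled transcript and 30 took over 90% of their FPKM from such transcripts. Normal replicate 13 was the highest of its group for 74 of them, replicate 8 for 45, replicate 10 for 30 and replicate 11 for 21. The median level was 3.56 CPM for the 377 genes and 3.05 CPM for the 170, below the 13.3 CPM of all expressed Ensembl genes tested.

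The HIBD model libraries varied more among themselves than the normal libraries. The SD of log2(CPM + 0.1) between the 4 libraries had a median of 0.22 in the HIBD model and 0.16 in the normal group, and it was larger in the HIBD model for 9556 of the 14115 genes, 67.7%. Without HIBD model replicate 16 the median SD of that group was 0.19, and without any other of its libraries 0.22. In the normal group it was 0.14 without replicate 10 and 0.15 to 0.16 without any other. The larger spread therefore remained without each single library. It was seen in each quintile of mean CPM, from 0.23 in normal and 0.31 in HIBD model libraries for the lowest to 0.13 and 0.21 for the highest.

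Fold changes were graded by transcript length. The relative length of a gene was read as the ratio of its deposited estimated count to its FPKM, weighted over its transcripts, and the genes were cut into 5 classes of equal size. The median log2 fold change was -0.15, -0.11, -0.08, -0.04 and -0.02 from the shortest to the longest class. At an unadjusted p under 0.05, 2.59% of genes were higher and 19.9% lower in the shortest class, and 9.68% and 10.5% in the longest. With the expressed Ensembl genes scaled and tested alone, these shares were 4.29% and 10.4% in the shortest class and 14.7% and 6.55% in the longest, so the longest class then held mostly higher values. In each library, the median deviation of the longest class minus that of the shortest was -0.06, 0.02, -0.08 and -0.10 in normal replicates 8, 10, 11 and 13. The HIBD model replicates 2, 8, 16 and 18 gave 0.01, 0.09, 0.11 and 0.04. Normal replicates 8, 11 and 13 lay below 0 and the 4 HIBD model libraries above it, with normal replicate 10 inside the range of the HIBD model. The gradient was also present among genes with 1 transcript row, with medians of -0.15 in the shortest and -0.01 in the longest class. Long genes also had higher CPM, with a median of 60.8 CPM in the longest class and 4.20 CPM in the shortest. CPM is not divided by length, so these values do not show more transcripts of long genes. The median relative lengths of these classes were 4.96 and 0.19 times that of all expressed Ensembl genes. Within the highest quintile of mean CPM, the median log2 fold changes ran from -0.09 for the shortest through -0.15, -0.11 and -0.06 to -0.01 for the longest class. The difference between the longest and the shortest class was positive in all 19 alternatives, from 0.03 with the length trend removed to 0.16. A change of scaling shifts both classes about alike, so RLE scaling and expressed Ensembl genes alone, both at 0.13, could hardly alter it. Removing the length trend acts on the difference itself.

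**Figure D3:**
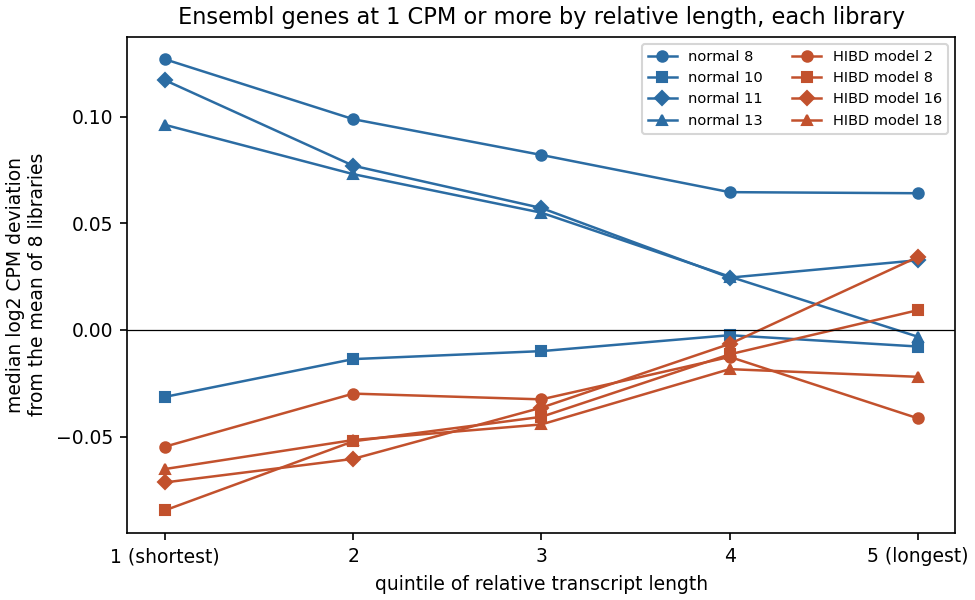
Median deviation of log2(CPM + 0.1) from the mean of the 8 libraries (vertical axis) for expressed Ensembl genes in 5 classes of relative transcript length (horizontal axis), with a line for each library. The lines of normal replicates 8, 11 and 13 end below their start, and those of normal replicate 10 and of the 4 HIBD model libraries end above their start.

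Genes with many transcripts also stood apart. The median log2 fold change was -0.10 for the 5630 genes tested with 1 transcript row and 0.09 for the 524 with 9 or more. At an unadjusted p under 0.05, 18.7% of the latter class were higher and 7.82% lower, against 3.84% and 16.3% with 1 row. With the expressed Ensembl genes scaled and tested alone, these shares were 23.5% and 3.82% with 9 or more rows, and 7.44% and 7.65% with 1 row. Higher values then also outnumbered lower ones with 2 rows (9.72% and 8.17%), 3 to 4 rows (10.9% and 8.80%) and 5 to 8 rows (13.9% and 7.86%). The difference between the medians of both classes was 0.18, and positive in all 19 alternatives. A change of scaling could hardly alter it, and RLE scaling and expressed Ensembl genes alone both left it at 0.18. This difference was 0.04 with Ensembl transcript rows alone, where the assembled rows are left out, and 0.14 to 0.23 in the other 18. By library, the median deviation with 9 or more rows minus that with 1 row was -0.14, 0.04, -0.09 and -0.15 in normal replicates 8, 10, 11 and 13. In HIBD model replicates 2, 8, 16 and 18 it was -0.02, 0.16, 0.23 and 0.04. HIBD model replicate 2 lay below normal replicate 10 in this measure, so the groups overlapped. Genes with 9 or more rows had a longer median relative length, 1.59 times that of all expressed Ensembl genes against 0.73 times with 1 row, so length and number of transcripts moved together. From the shortest to the longest length class, the median log2 fold change with 9 or more rows was -0.07, 0.08, 0.06, 0.19 and 0.13 (61 to 151 genes per class). With 1 row it was lower in each class, at -0.15, -0.11, -0.09, -0.06 and -0.01.

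**Figure D4:**
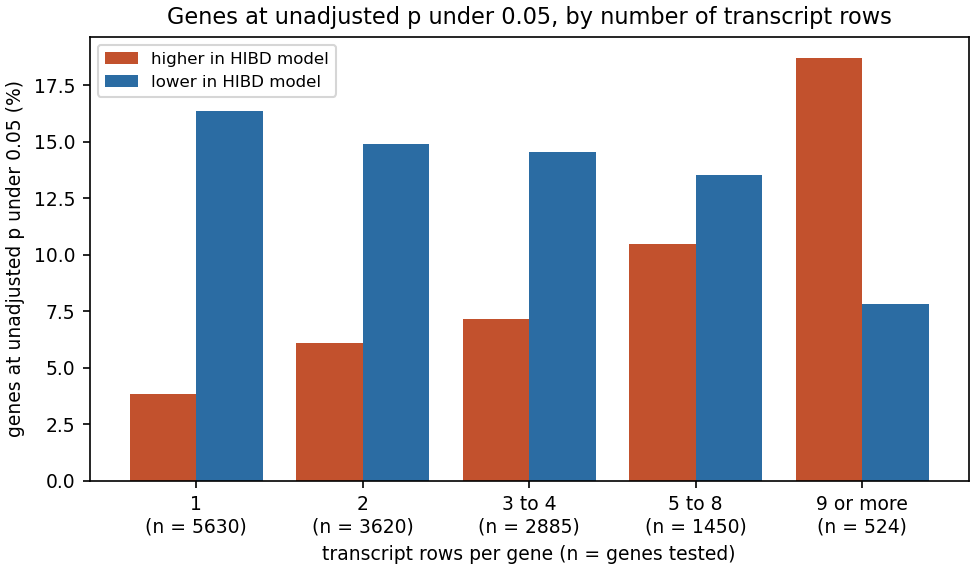
Percent of expressed Ensembl genes at an unadjusted p under 0.05 (vertical axis, from 0) that were higher or lower in the HIBD model, by number of transcript rows per gene (horizontal axis). As plotted, lower values outnumber higher ones in each class up to 8 rows, and higher values reach 18.7% with 9 or more; with expressed Ensembl genes alone this holds for 1 row only.

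Within the same genes, transcripts named by the assembler and Ensembl transcripts had different median changes. In the 2075 expressed Ensembl genes with at least 1 CPM in each kind of row, the median log2 difference between HIBD model and normal libraries was 0.08 for the assembled rows and -0.09 for the Ensembl rows. Both kinds differed in sign in 948 of these genes, 45.7%, and had the same sign in the rest. A change of library scaling would shift both medians alike, so their signs depend on it. The assembled rows lay wholly above normal in 201 genes (9.69%) and wholly below in 98 (4.72%), and the Ensembl rows in 62 (2.99%) and 131 (6.31%). Of all genes tested, 6.13% lay wholly above and 5.39% wholly below, and of the expressed Ensembl genes tested 3.05% and 8.36%. The lower shares of both kinds were close to the first background and below the second. The higher share of the Ensembl rows was close to the second background, and that of the assembled rows was above both. The median log2 ratio of assembled to Ensembl rows, centred on its mean over the 8 libraries, was -0.20, 0.07, -0.14 and -0.17 in normal replicates 8, 10, 11 and 13. For HIBD model replicates 2, 8, 16 and 18 the values were 0.04, 0.17, 0.22 and 0.09. Normal replicates 8, 11 and 13 lay below all HIBD model libraries, and normal replicate 10 lay between HIBD model replicates 2 and 18. Of the total over these 14115 genes, assembled rows made up 16.4 ± 1.69% in normal and 16.4 ± 2.10% in HIBD model libraries (SD, n = 4). Without the 10 genes of highest mean CPM it was 8.98 ± 0.33% and 9.31 ± 0.56% (SD, n = 4).

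The genes of highest mean CPM showed how much a single library could weigh. CPM is not divided by length, so this rank favours long transcripts. The first in rank had 56256, 65367, 49359 and 62654 CPM in normal replicates 8, 10, 11 and 13. It had 12542, 61535, 37530 and 44717 CPM in HIBD model replicates 2, 8, 16 and 18. Replicate 2 was far below the other HIBD model libraries, of which replicate 8 lay within the normal range, and the log2 ratio of -0.58 did not pass (standard error 0.38, adjusted p = 0.409 in edgeR). The second in rank had 21707, 36427, 17211 and 25432 CPM in the normal replicates and 36577, 41191, 33746 and 50387 CPM in the HIBD model replicates, in the same order. Its groups overlapped through normal replicate 10 and HIBD model replicate 16, and its log2 ratio of 0.68 did not pass either (standard error 0.28, adjusted p = 0.187 in edgeR). Of the 10 genes of highest mean CPM, only the sixth in rank had groups that did not overlap. Its mean was 4039 ± 272 CPM in normal and 5747 ± 965 CPM in HIBD model libraries (SD, n = 4). Its relative length was 55.4 times the median of the expressed Ensembl genes. Its log2 fold change was 0.51 (SE 0.14, edgeR adjusted p = 0.104).

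Direction was more stable than significance. Of the 894 genes higher at an unadjusted p under 0.05, 893 kept their direction in all 8 fits without 1 library, and 469, or 52.5%, kept an unadjusted p under 0.05 in all of them. Of the 2116 lower genes, 2114 kept their direction and 852, or 40.3%, kept that p. Each of these fits shares 11 of its 12 libraries with the full one, so stable direction was favoured. Over all 19 alternatives, 838 (93.7%) of the higher and 2004 (94.7%) of the lower genes kept their direction. With the expressed Ensembl genes scaled and tested alone, all 894 higher genes and 1114 of the 2116 lower genes had the same direction at an unadjusted p under 0.05. That scaling moved the median log2 fold change up, from -0.083 to -0.0042, which favours keeping higher genes and losing lower ones.

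**Figure D5:**
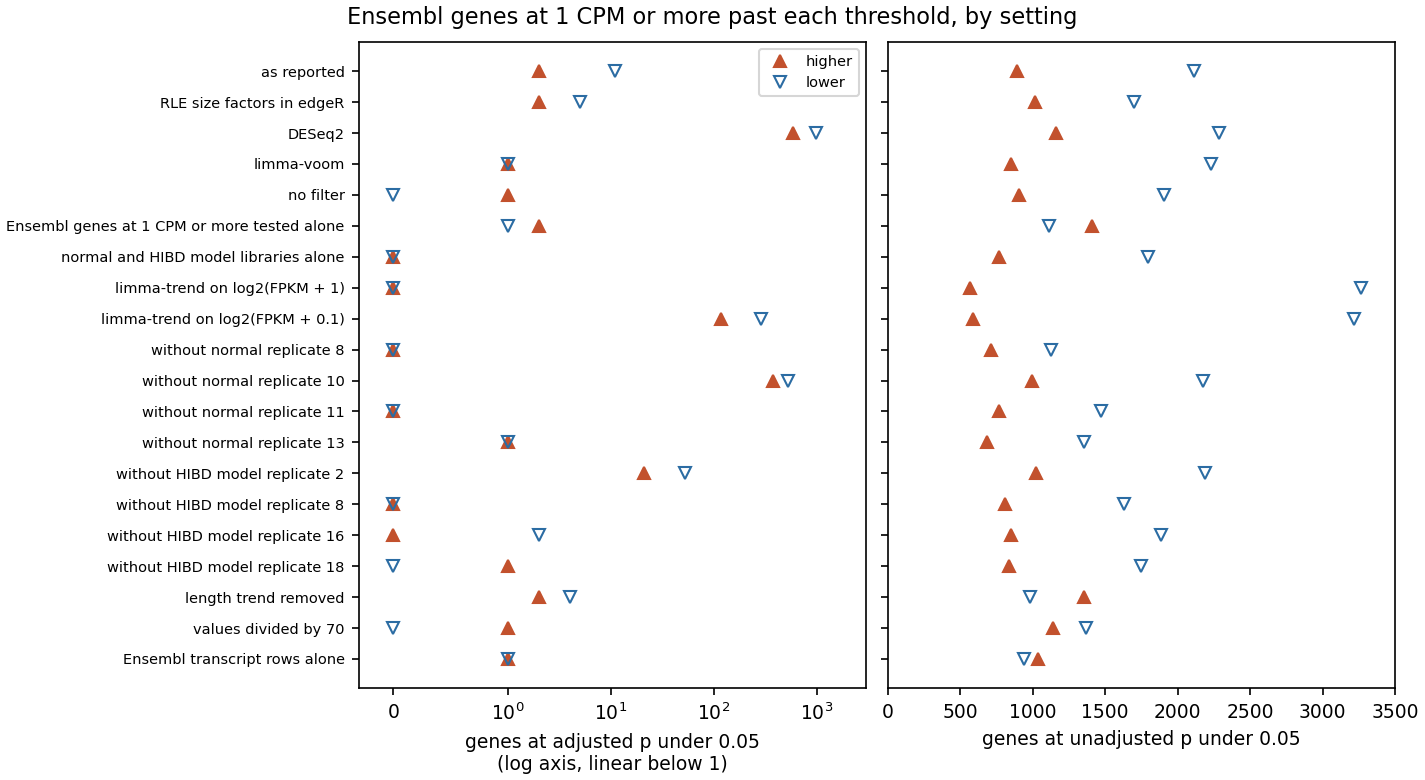
Number of expressed Ensembl genes higher and lower in the HIBD model at an adjusted p under 0.05 (left, log axis that is linear below 1) and at an unadjusted p under 0.05 (right), for each setting (rows). The left counts run from 0 to 969 in a direction, and on the right higher genes outnumber lower ones in 3 settings: expressed Ensembl genes alone, length trend removed and Ensembl transcript rows alone.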

How the data were processed

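Per the labels' protocols, RNA was taken from frozen prefrontal cortex with Trizol and made into libraries with NEBNext reagents. HTSeq 0.6.0 and the build Rnor_6.0 are named, without their use, in the submitters' processing notes. Which aligner and assembler were run, and with which strand setting, is not given in the sources used here. For the whole series, the authors deposited 1 table of estimated counts, with 78025 transcript rows of whole numbers. They are called estimated counts here because their worth in reads is unknown. The values equalled the FPKM values times a row factor and a library factor, with a median deviation of 0.00114%. This was over 12003 rows above 2000 in every library, against 17.9% with shuffled rows. Read counts would give this product too, because FPKM is a count scaled by length and library total, so it cannot tell estimates from read counts. The FPKM values deposited per library carry gene identifiers in the same row order, and this product was the check of that order. Their unit was read from the values.

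Rows were summed per gene and tested with edgeR 4.0.16 (R 4.3.3; TMM, filterByExpr by group, quasi-likelihood test) on all 12 libraries, with Benjamini-Hochberg adjustment over 27885 genes and a threshold of 0.05. The design assumed counts and was kept for estimated counts. Standard errors come from the F statistic, and the test was run on simulated data first. Alternatives were RLE scaling, DESeq2 1.42.0, limma 3.58.1 (voom, and trend on log2(FPKM + 1) or log2(FPKM + 0.1)), no filter, expressed Ensembl genes alone, the 2 groups alone and each replicate left out. The removal of the length trend, division by 70 and Ensembl rows alone were added after seeing the data. The gene set, the lists and the descriptive classes were chosen with earlier results of these data known. The planned rule for named genes and 49 gene lists with 712 symbols needed symbols, which no identifier matched, so the lists and cell type markers were not analysed here. The rule then names the 2 rising and 2 falling identifiers with the smallest p. Any other gene singled out was picked with its values in view.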

Additional observations from a re-analysis of the deposited data

Results flagged for a closer look

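The total estimated count of HIBD model replicate 18, 1090316733, lay far from those of the other 3 HIBD model libraries, which were close together. It was singled out because its distance to the nearest of them took up nearly the whole range of the group. Of 20 groups of 4 values examined in this way, 1 was singled out, and chance alone would single out about 1 in 20. The totals enter the results only through scaling, and without this library 1 expressed Ensembl gene was called.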

How the results depend on the processing

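For the 13 calls among expressed Ensembl genes, and the 27 among all genes tested, the values under other settings were 7 and 19 with RLE scaling, 1547 and 4072 with DESeq2, 2 and 5 with limma-voom, and 1 and 5 without a filter. They were 3 and 3 with expressed Ensembl genes tested alone, and 0 and 0 in the fit of the 2 groups alone (edgeR, 4986 of all genes at an unadjusted p under 0.05). With limma-trend they were 0 and 0 on log2(FPKM + 1), with 7643 of all genes at an unadjusted p under 0.05, and 400 and 1387 on log2(FPKM + 0.1). They were 6 and 14 with the length trend removed, 1 and 1 after division by 70, and 2 and 2 with Ensembl rows alone. Leaving out 1 replicate gave 0 to 890 and 1 to 3032. All genes tested numbered from 14115 with expressed Ensembl genes alone to 35754 without a filter, so these counts have different bases. The counts at an unadjusted p under 0.05, 894 higher and 2116 lower, became 1410 and 1115 with expressed Ensembl genes alone, 1357 and 984 with the length trend removed, 1034 and 938 with Ensembl rows alone, and 1137 and 1366 after division by 70. On log2(FPKM + 1) they were 568 and 3265, and on log2(FPKM + 0.1) 591 and 3217. Leaving out 1 replicate gave 683 to 1026 higher and 1123 to 2189 lower. The cause of these differences was not tested. No result changed direction among the 4 named genes. No paired analysis was possible because the groups share only 1 replicate number. Depth in reads is unknown, so no counting error is given.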
